A study of Saccharomyces cerevisiae with 12 samples.

Results

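Transcription in rad30Δ cells collected after DSB induction (labelled rad30 1G, 3 samples) was compared with transcription in WT cells held in G2/M arrest (labelled WT G2, 3 samples). The 2 groups differ in strain and in treatment at once, so the question was where the effect of the strain and the effect of the induction added up and where they cancelled. The comparison uses 6 of the 12 samples of the series, and the other 6, arrested rad30Δ cells (rad30 G2) and WT cells after induction (WT 1G), were used to split the combined effect. Of 7123 genes in the deposited count table, the 6490 with at least 10 reads over the 12 libraries were tested.

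All samples were W303 derivatives of Saccharomyces cerevisiae, grown in 2% raffinose and arrested in G2/M for 3 h by 80 µg/ml benomyl, which depolymerises microtubules. The induced samples then received 2% galactose for 1 h, which turns on the endonuclease HO from a GAL promoter and so a DSB at MAT on chromosome III. The strain table of the study lists such strains with a GAL-driven SMC1-MYC and the smc1-259 allele, but which of its strains were sequenced is not stated. No library had galactose without HO, so galactose, the break and the induced genes cannot be told apart. Nothing in the sources says that replicates came from separate cultures, so the p-values rest on differences among these samples alone, which may be technical.

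RAD30 encodes DNA polymerase η, a translesion polymerase that in yeast is also required for cohesion formed in response to a DSB. Galactose enters the cell through Gal2, and the sensor Gal3 frees the activator Gal4 from its repressor Gal80, so that the GAL enzymes are made and carbon metabolism shifts. Heat shock and general stress genes answer to the activators Hsf1 and Msn2/Msn4, proteasome genes to Rpn4, phospholipid genes to Ino2/Ino4 and phosphate genes to Pho4. Mating type is set at MAT: α cells express α-factor and the receptor Ste3, and a cells express a-factor and the receptor Ste2.

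The libraries held 5881783 to 7063470 counted reads in induced rad30Δ cells and 6244219 to 7078155 in arrested WT cells (5442935 to 7289514 over all 12). Levels are given as CPM, counts scaled to a common library size after TMM. Replicate 3 of induced rad30Δ cells stood apart: its TMM factor was 0.8734, and 0.2051% of its reads came from mitochondrial genome genes, against 0.0114% to 0.0743% in the other 11 libraries. For many results that depend on it, values without it are also given. The others are given with all 12 libraries only. RAD30 had 0 reads in all 3 induced rad30Δ libraries, against 40.4, 52.4 and 47.1 CPM in arrested WT cells. Taking 3 reads per library as the most that 0 reads allow, its level was at least 79.8-fold lower, a bound that covers counting error only.

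The combined effect is the log2 fold change of induced rad30Δ over arrested WT cells. It is the exact sum of a strain effect, the mean difference of rad30Δ from WT cells over both treatments, and an induction effect, the mean difference of induced from arrested cells over both strains. Each was tested in edgeR by quasi-likelihood, with p-values adjusted after Benjamini and Hochberg over all 6490 genes, and a gene is called at an adjusted p under 0.05. In the combined comparison 617 genes (9.51%) were higher and 630 (9.71%) were lower in induced rad30Δ cells. The median log2 fold change was 0.455 among the higher and -0.429 among the lower genes, and 82 and 44 of them passed 2-fold. The 3 values of each group did not overlap in 610 of the higher and 618 of the lower genes, against 32.4% of all genes tested. Without WT G2 replicate 3 the counts were 381 higher and 419 lower. With only the 6 compared libraries fitted they were 294 and 308.

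The strain effect was called for 791 genes as a rise (12.2%) and for 836 as a fall (12.9%), and the induction effect for 619 (9.54%) and 611 (9.41%). These comparisons use the same libraries as the combined one, so their lists are not independent. The strain effect was the larger part in 351 of the 617 higher and 404 of the 630 lower genes, and the induction effect in 266 and 226. Both parts pointed the same way in 404 of the higher and 394 of the lower genes. The combined comparison also called 48 higher and 42 lower genes for which neither effect was called alone.

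Both effects were called for 476 genes. They added up in 146, of which 87 rose and 59 fell by both effects, and they opposed each other in 330, or 69.3% of the 476. Of the opposed genes, 143 had a strain rise with an induction fall and 187 a strain fall with an induction rise. Since the combined effect is the sum, its direction in the adding genes follows from their class. Their median combined log2 fold change was 0.748 and -0.713, from medians of 0.332 and -0.320 by strain and of 0.394 and -0.318 by induction.

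Of the 143 with a strain rise and an induction fall, 117 were not called in the combined comparison, and in 113 of these the 95% interval of the combined effect lay within 1.5-fold of no change. The median size of the combined effect in this class was 0.102 on the log2 scale. Of the 187 with a strain fall and an induction rise, 135 were not called, 108 of them with an interval within 1.5-fold. Their median size was 0.157, while over all genes tested it was 0.177. Opposite signs make the sum smaller than the larger effect by definition, so these sizes describe the classes and test nothing.

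The class counts depended on single libraries. Without replicate 3 of induced rad30Δ cells the counts were 104 and 94 adding genes and 284 (strain rise) and 255 (strain fall) opposed genes, so that 73.1% of genes called by both effects were opposed. Without any one of the 3 induced WT libraries, the 3 arrested WT libraries or replicates 1 and 2 of arrested rad30Δ cells, the strain-rise class held 80 to 91 genes and the strain-fall class 119 to 133. The rises by both effects fell to 53 and 56 without WT 1G replicates 2 and 3. The induction falls fell to 401, 394 and 382 without WT 1G replicate 1, WT 1G replicate 3 and WT G2 replicate 3. The share of opposed genes was 58.4% to 73.1% over the 12 fits that each left out 1 library. With single effects against arrested WT cells it was 59.8%, and on the path through arrested rad30Δ cells 64.9%. It was 85.4% where the strain effect was taken in induced cells and the induction effect in WT cells. The effects of each such split share a group of libraries, with the same sign in the first split and opposite signs in the later ones, which by itself shifts the share. Most genes did not keep their class in the first split, whose single effects rest on 6 libraries each. Of the adding genes, 24 of the 87 rises and 22 of the 59 falls kept it. Of the opposed genes, 37 of the 143 with a strain rise and 56 of the 187 with a strain fall kept it.

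**Figure D1:**
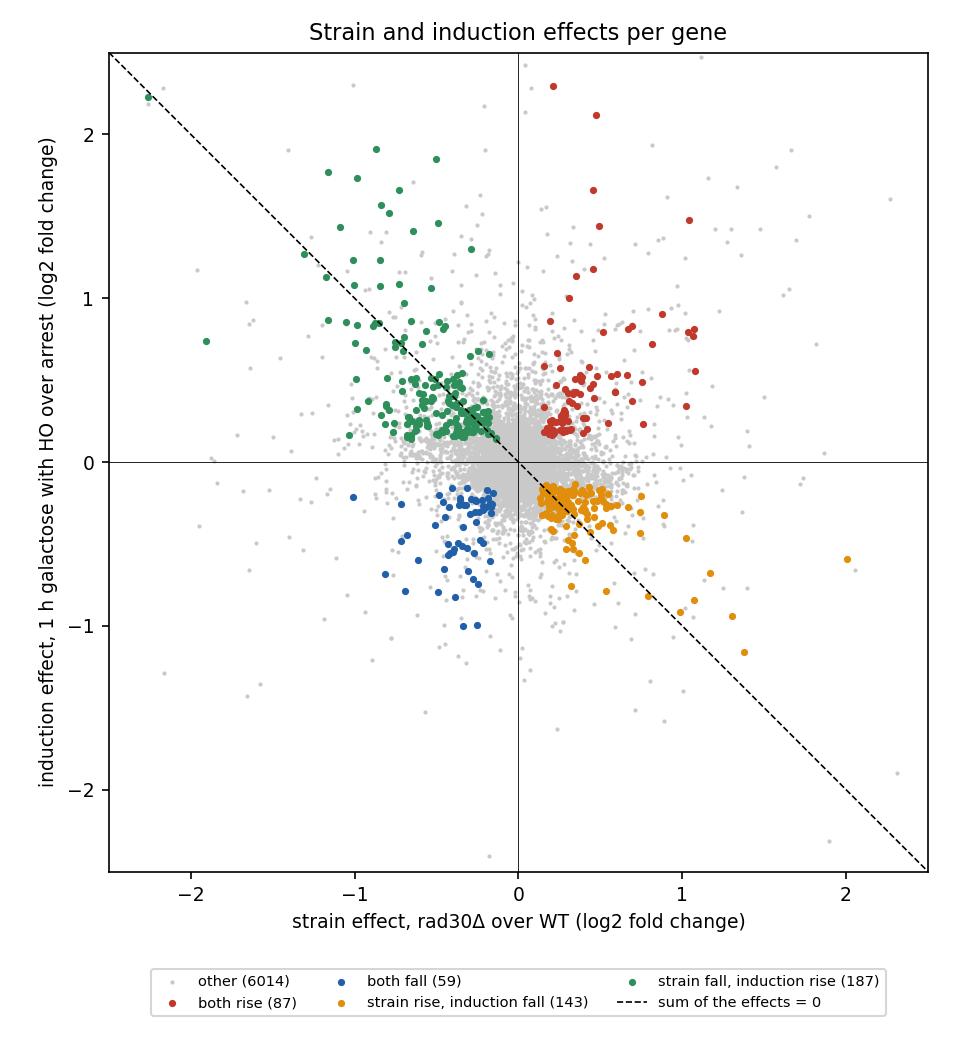
Each point is 1 of the genes tested, with its strain effect on the x axis and its induction effect on the y axis (log2 fold changes), coloured by class where both effects were called; 34 genes lie outside the axes. The dashed line marks where the effects sum to 0. The quadrants it crosses hold the 330 opposed genes, some far from the line, and the other quadrants the 146 adding genes.

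Among genes that rose by both effects, ordered by the smaller of their effects, OPT2, an oligopeptide transporter, came first and stood at 184, 128 and 112 CPM in induced rad30Δ cells, against 21.1, 25.7 and 27.4 CPM in arrested WT cells. Its combined log2 fold change was 2.52 ± 0.16 (SE), made of 1.04 by strain and 1.48 by induction (edgeR adjusted p = 3.05e-07). SFC1, the mitochondrial succinate-fumarate carrier, had 145, 139 and 99.7 CPM in induced rad30Δ cells, 97.1, 87.1 and 55.0 in arrested rad30Δ cells, 66.9, 82.1 and 54.1 in induced WT cells and 39.3, 41.6 and 27.2 in arrested WT cells. Either change alone left SFC1 between the 2 extreme groups, and the sum was 1.83 ± 0.23. PIR3, a cell wall protein, had 1522, 1248 and 1770 CPM in induced rad30Δ cells, against 422, 463 and 388 CPM in arrested WT cells, a log2 fold change of 1.83 ± 0.12 with 1.06 from the strain and 0.77 from the induction. For all 3 genes the lowest induced rad30Δ library was above the highest arrested WT library.

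Mitochondrial malic enzyme (MAE1), glycerol-3-phosphate dehydrogenase (GUT2), acetyl-CoA transferase (ACH1) and the oxodicarboxylate carrier ODC1 belonged to the same class, with combined log2 fold changes of 1.52, 1.48, 1.63 and 1.14. In each of them replicate 3 of induced rad30Δ cells was the highest library. GUT2 reached 2665 CPM there, against 1194 and 1068 CPM in the other 2 libraries of that group. Without that library the values were 1.29 for MAE1, 0.94 for GUT2, 1.28 for ACH1 and 0.82 for ODC1, and all 4 stayed called by both effects.

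FAR1, whose product inhibits the G1 cyclin-dependent kinase and arrests cells for mating, was at 959, 975 and 1011 CPM in induced rad30Δ cells, against 216, 231 and 232 CPM in arrested WT cells. Its rise of 2.11 ± 0.07 on the log2 scale came mostly from the induction effect of 1.66, with 0.46 from the strain. SDD1 rose by 4.24 ± 0.18, of which 3.77 came from the induction.

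**Figure D2:**
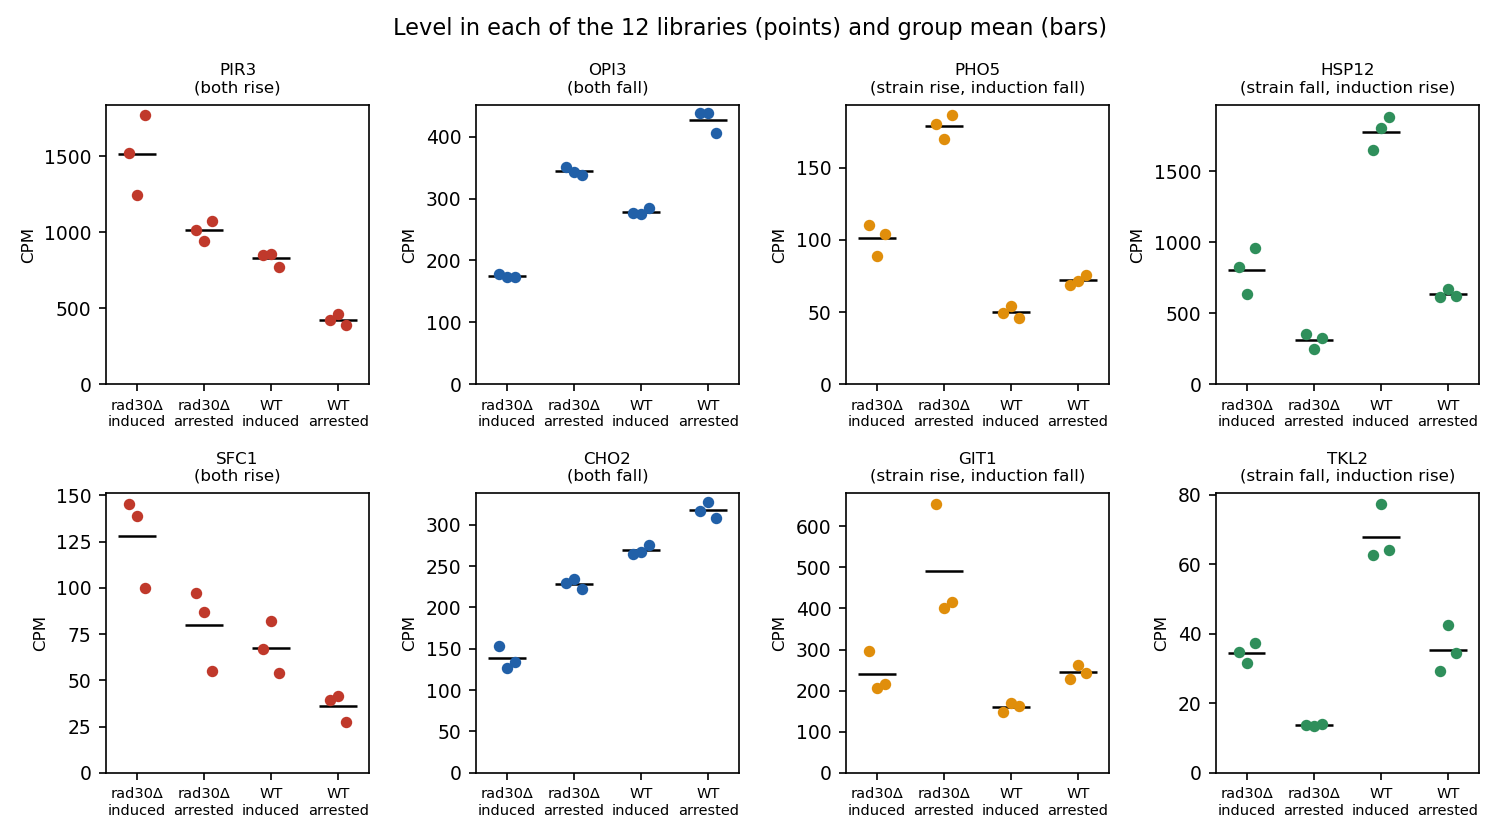
CPM of 8 genes (y axis from 0) in the 4 groups (x axis, induced and arrested rad30Δ and WT cells), with points for the 12 libraries and bars for group means. PIR3, SFC1, OPI3 and CHO2 step in one direction across both changes, whereas PHO5, GIT1, HSP12 and TKL2 turn back, and GIT1, HSP12 and TKL2 have overlapping values in induced rad30Δ and arrested WT cells.

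Respiratory genes were mostly higher, some by strain and some by induction. Of 17 tricarboxylic acid cycle enzymes, 13 were called higher and 0 lower in induced rad30Δ cells, with a median log2 fold change of 0.565 where that of all genes was -0.003. By strain 10 rose and 0 fell (median 0.295), and by induction 8 rose and 1 fell (median 0.192), 3 of them rising by both. Against arrested WT cells alone, 1 of the 17 rose by strain and 1 by induction. FUM1, fumarase, rose by 0.89 ± 0.07, with 0.44 from the strain and 0.45 from the induction, and had 1788, 1701 and 1934 CPM in induced rad30Δ cells, against 939, 1027 and 970 CPM in arrested WT cells. Of 34 nuclear-encoded subunits of the respiratory chain and ATP synthase, 27 were higher and 2 lower (median 0.376), with 14 rises by strain, 19 by induction and 6 by both. Against arrested WT cells alone, 3 of the 34 rose by strain and 4 by induction. COX6, a subunit of cytochrome c oxidase, had 797, 707 and 806 CPM in induced rad30Δ cells, against 525, 542 and 526 CPM in arrested WT cells (log2 0.54 ± 0.07, of which 0.26 by strain and 0.28 by induction). Without replicate 3 of induced rad30Δ cells, 15 of the 17 cycle enzymes and 27 of the 34 subunits were higher, with medians of 0.425 and 0.332.

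The enzymes around this cycle did not move as a block. Of 15 genes of the glyoxylate cycle, gluconeogenesis and other glucose-repressed functions, 7 were higher and 2 lower. MLS1, malate synthase, had 326, 318 and 366 CPM in induced rad30Δ cells, against 127, 137 and 128 CPM in arrested WT cells (log2 1.37 ± 0.09), and FBP1, the gluconeogenic fructose-bisphosphatase, rose by 0.76, nearly all of it by strain. REG2, a regulatory subunit of the phosphatase Glc7, fell by both effects, at 23.2, 20.9 and 29.8 CPM in induced rad30Δ cells, against 45.9, 48.8 and 44.8 CPM in arrested WT cells. Of 20 glycolytic enzymes, 10 were higher and 1 lower (median 0.394), with 9 rises by induction and 1 by strain. Without replicate 3 of induced rad30Δ cells 7 were higher and 2 lower, with a median of 0.216. TDH2, a glyceraldehyde-3-phosphate dehydrogenase, was called by both effects, 1.00 by induction and 0.31 by strain.

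The genes of the mitochondrial genome gave no comparable result. COX2 was called (log2 2.75 ± 0.89, edgeR adjusted p = 0.0478), with 3.13, 4.15 and 40.1 CPM in induced rad30Δ cells, against 4.27, 0.898 and 1.39 CPM in arrested WT cells. The groups overlapped, and the call rested on replicate 3 of induced rad30Δ cells. Without that library the value was 0.69 and not called. The call was also lost without any one of 9 other libraries, at 2.39 to 3.71.

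The galactose regulon moved by induction and hardly by strain. All 9 of its genes were higher (median 3.885), with a median strain effect of -0.043. GAL7, the galactose-1-phosphate uridylyltransferase gene, was at 3543, 2898 and 4082 CPM in induced rad30Δ cells, against 3.58, 6.58 and 9.85 CPM in arrested WT cells, a log2 fold change of 9.05 ± 0.36. Reads of HO, SMC1 and ADE3, the locus that carries GAL-HO in the strain table, rose with them by 6.70, 4.47 and 2.85. SMC1 was the one of these 3 with a called strain fall, of -0.36, against an induction rise of 4.83. The control element of this regulon is the Gal4 site, CGG and CCG with 11 bases between them. It was found within 500 bases before the start of 8 of the 9 genes (88.9%), against 175 of 5865 genes (2.98%) with such a stretch in the R64 RefSeq genome, both strands searched. The site also lay before 12.8% of all genes that rose by both effects and 5.78% of those that rose by induction only. The stretches with these sites are shown for 3 genes of the regulon, and binding was not measured. Capitals mark the sites, and 2 of the 4 sites of GAL2 overlap. GAL10 and GAL1 overlap an annotated non-coding gene and start from the same intergenic region.
GAL1 (chrII:278556-278633, plus strand): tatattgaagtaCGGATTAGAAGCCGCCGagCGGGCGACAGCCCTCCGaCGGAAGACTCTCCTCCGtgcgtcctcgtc
GAL2 (chrXII:289784-289912, plus strand): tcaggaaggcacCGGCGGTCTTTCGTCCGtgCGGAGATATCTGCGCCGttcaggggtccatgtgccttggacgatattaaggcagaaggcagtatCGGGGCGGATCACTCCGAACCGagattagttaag
GAL7 (chrII:275691-275731, minus strand): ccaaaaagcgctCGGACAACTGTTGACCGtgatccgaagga

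Hexose transporters were mixed. Of 10, 0 were higher and 5 lower in the combined comparison (median -0.390), and by induction 6 fell and 2 rose, HXT1 by 0.52 and HXT5 by 0.85. HXT4 was at 109, 267 and 292 CPM in induced rad30Δ cells, against 729, 391 and 630 CPM in arrested WT cells, and its fall of -1.39 came by induction (-1.63). HXT10 fell by both effects, at 6.97, 14.1 and 13.2 CPM in induced rad30Δ cells, against 29.4, 34.6 and 30.9 CPM in arrested WT cells. In HXT7, a high-affinity transporter, a strain rise of 0.98 met an induction fall of -0.91, which left 202, 98.9 and 228 CPM in induced rad30Δ cells, against 187, 151 and 164 CPM in arrested WT cells. The combined interval of HXT7 was -0.50 to 0.65. HXT6 is nearly identical to HXT7 and may share its reads.

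Transcripts of phospholipid synthesis genes were mostly lower, many of them by both effects. Of 15 inositol, phospholipid and fatty acid genes, 13 were lower and 0 higher in induced rad30Δ cells (median -0.569). By strain 10 fell and by induction 11 fell, 8 of them by both, and 0 rose by either. OPI3 and CHO2 encode the methyltransferases that turn phosphatidylethanolamine into phosphatidylcholine. OPI3 had 179, 173 and 173 CPM in induced rad30Δ cells, 351, 343 and 338 in arrested rad30Δ cells, 277, 275 and 285 in induced WT cells and 438, 438 and 406 in arrested WT cells. None of its 4 groups overlapped, and its log2 fold change of -1.29 ± 0.06 was the sum of -0.49 by strain and -0.79 by induction. CHO2 had 154, 127 and 134 CPM in induced rad30Δ cells, against 317, 328 and 308 CPM in arrested WT cells (log2 -1.20 ± 0.08, with -0.72 by strain and -0.48 by induction).

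ITR1, the inositol transporter, had 337, 307 and 306 CPM in induced rad30Δ cells, against 778, 755 and 724 CPM in arrested WT cells, a log2 fold change of -1.25 ± 0.07, of which -0.25 came by strain. ACC1, acetyl-CoA carboxylase, fell by 0.78 on the log2 scale, with -0.45 by strain and -0.34 by induction. INO1, which makes inositol phosphate, was an exception in this group, with a strain fall of -0.71 and an induction effect of 0.15 that was not called. CATGTG, the core of the inositol-sensitive element bound by Ino2/Ino4, was found in the 500 bases before 11 of these 15 genes (73.3%), against 13.0% of all 5865. It was found before 22.0% of the genes that fell by both effects, 18.9% of those with a strain rise against an induction fall and 16.7% of those that rose by induction only. A match is a description of the letters, and binding was not measured here. Stretches of OPI3, CHO2 and ITR1 (2 of its 3 matches) are shown with the core in capitals on either strand.
OPI3 (chrX:573066-573159, minus strand): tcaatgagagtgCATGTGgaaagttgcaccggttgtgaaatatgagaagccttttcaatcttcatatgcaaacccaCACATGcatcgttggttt
CHO2 (chrVII:802090-802190, plus strand): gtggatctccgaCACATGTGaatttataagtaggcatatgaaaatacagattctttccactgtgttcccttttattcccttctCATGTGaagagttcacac
ITR1 (chrIV:1445671-1445761, minus strand): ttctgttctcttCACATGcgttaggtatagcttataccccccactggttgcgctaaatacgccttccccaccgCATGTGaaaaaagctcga

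Other falls by both effects were spread over functions. STB6, named for the binding of its product to Sin3, averaged 10.1 ± 0.385 CPM in induced rad30Δ cells, against 28.5 ± 2.11 CPM in arrested WT cells (SD, n = 3 each), a log2 fold change of -1.50 ± 0.12. PSK2, a PAS-domain kinase, fell by 1.13 on the log2 scale. Of 10 histone genes, 8 were lower and 0 higher (median -0.426), and without replicate 3 of induced rad30Δ cells 10 were lower. HTA2 and HTB2, which encode histones H2A and H2B from a shared promoter, fell by both effects, HTA2 to 197, 164 and 159 CPM in induced rad30Δ cells, against 327, 307 and 297 CPM in arrested WT cells. HHF1, encoding histone H4, fell by 0.57, and its induction effect was 0.03. Of 19 genes of the G2/M-expressed CLB2 cluster, 6 were lower and 0 higher (median -0.154). Without replicate 3 of induced rad30Δ cells 4 of the 19 were lower. The B-type cyclin gene CLB1 fell by both effects, with 112, 126 and 101 CPM in induced rad30Δ cells, against 181, 185 and 190 CPM in arrested WT cells. The study checked the arrest by flow cytometry, and those data were not analysed here.

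**Figure D3:**
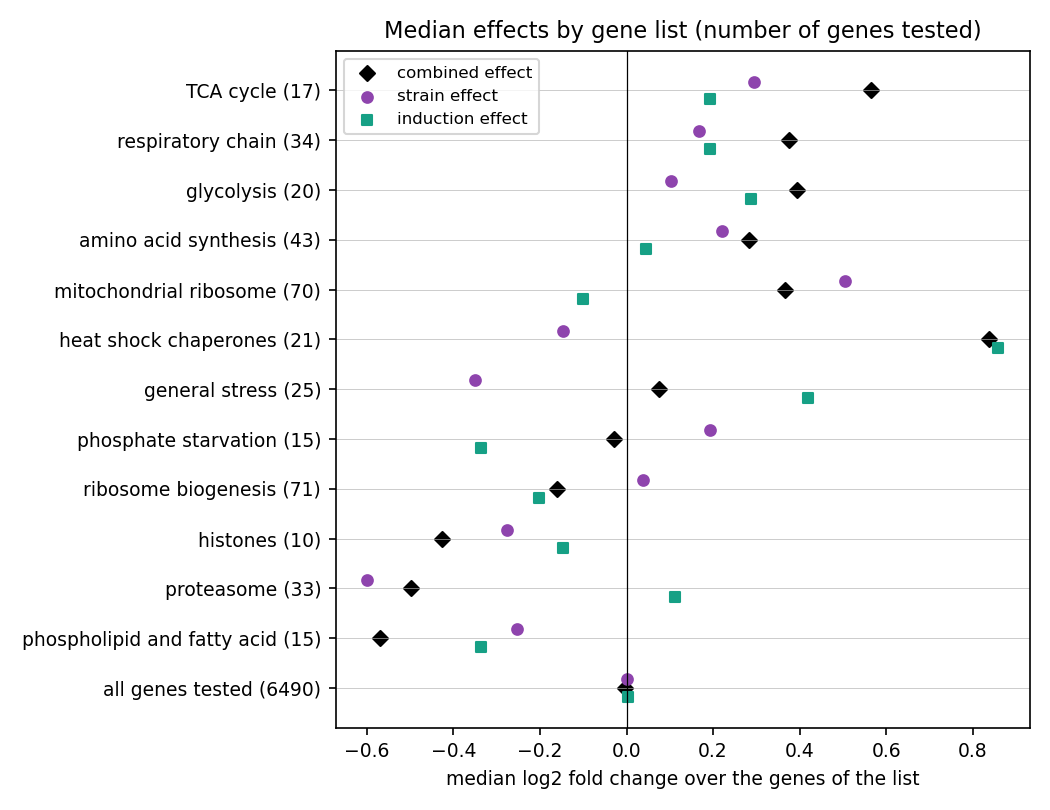
Median log2 fold change (x axis) over the genes of 12 lists and over all genes tested (rows, with the number of genes), for the combined, strain and induction effects. Both parts lie on the same side of 0 for the tricarboxylic acid cycle and for phospholipid genes, whereas they lie on opposite sides for heat shock chaperones, general stress, phosphate and proteasome genes, and the combined median lies between them or near the larger part.

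Of 21 heat shock chaperones, all 21 rose by induction (median 0.859), while 7 fell and 2 rose by strain (median -0.146). In arrested cells alone the strain difference was called as a rise for 3 and a fall for 1 (median 0.02), so the averaged strain falls do not describe arrested cells. In the combined comparison 19 were higher and 0 lower (median 0.837). HSP82, an Hsp90, had 978, 779 and 1090 CPM in induced rad30Δ cells, 416, 422 and 437 in arrested rad30Δ cells, 1296, 1239 and 1307 in induced WT cells and 462, 495 and 459 in arrested WT cells. Its combined rise of 1.01 ± 0.10 was what an induction effect of 1.30 left after a strain effect of -0.29. SSA4, an inducible Hsp70, had 170, 206 and 354 CPM in induced rad30Δ cells, against 123, 126 and 105 CPM in arrested WT cells (log2 1.04 ± 0.24, with 1.91 by induction and -0.87 by strain). HSP78, a mitochondrial disaggregase, rose by 1.22 by induction, and its strain effect was not called (edgeR adjusted p = 0.984).

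In many of these genes replicate 3 of induced rad30Δ cells was the highest of its group. Without it, 18 of the 21 chaperones were higher (median 0.564), 13 fell by strain, and 13 rather than 7 had a strain fall against an induction rise. In SSA4 the combined value was then 0.67. The heat shock element core GAANNTTCNNGAA, bound by Hsf1, was found before 13 of the 21 genes (61.9%), against 1.48% of all 5865 genes. It is shown, as 2 overlapping matches each, for HSP78 and for the small heat shock protein gene HSP42, whose strain effect of -0.49 was called with all libraries and lost its call without any one of 6 libraries.
HSP42 (chrIV:806366-806407, plus strand): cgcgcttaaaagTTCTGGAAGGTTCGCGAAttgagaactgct
HSP78 (chrIV:974461-974502, minus strand): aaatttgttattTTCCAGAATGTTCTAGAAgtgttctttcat

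Of 25 general stress genes, 14 rose and 2 fell by induction (median 0.420), while 1 rose and 11 fell by strain (median -0.349). In 6 of the 25 a strain fall met an induction rise, 8 rose by induction only and 4 fell by strain only. The combined comparison called 5 higher and 4 lower, with a median of 0.074. Without replicate 3 of induced rad30Δ cells 6 were higher and 7 lower (median -0.106), and 17 fell by strain. HSP12, a small membrane-stabilising stress protein, had 823, 632 and 961 CPM in induced rad30Δ cells, 355, 249 and 324 in arrested rad30Δ cells, 1649, 1804 and 1886 in induced WT cells and 614, 668 and 619 in arrested WT cells. A strain effect of -1.09 and an induction effect of 1.44 left 0.35, with a 95% interval of 0.03 to 0.66 and no call (edgeR adjusted p = 0.122). MSC1 had 192, 126 and 354 CPM in induced rad30Δ cells, against 233, 238 and 226 CPM in arrested WT cells (log2 -0.06 ± 0.25). Without replicate 3 of induced rad30Δ cells MSC1 was called lower, at -0.55. RTN2, a reticulon, had a strain effect of -0.98, an induction effect of 0.84 and a combined interval of -0.51 to 0.21. The hydrophilin genes SIP18 and GRE1 had combined rises of 1.96 and 1.35. GLC3, the glycogen branching enzyme gene, fell by both effects, with a combined value of -0.92. The stress response element AGGGG, bound by Msn2/Msn4, lay before 24 of the 25 genes (96.0%) and before 34.3% of all 5865 genes. In the 4 classes its share was 47.7% and 55.9% of genes that rose and fell by both effects, 32.2% with a strain rise against an induction fall and 43.6% with the reverse. The element is shown, on either strand, for HSP12 (2 of its 5 matches), MSC1 and RTN2, where the effects left no called difference.
HSP12 (chrVI:107012-107082, plus strand): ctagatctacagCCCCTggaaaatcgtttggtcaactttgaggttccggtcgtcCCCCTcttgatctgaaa
MSC1 (chrXIII:16792-16890, minus strand): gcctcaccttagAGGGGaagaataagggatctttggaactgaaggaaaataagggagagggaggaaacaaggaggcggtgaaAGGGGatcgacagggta
RTN2 (chrIV:94433-94461, plus strand): cataggcaatctCCCCTtattgttcaccc

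Outside the stress lists, the effects cancelled in TKL2, a transketolase gene. It had 34.7, 31.5 and 37.4 CPM in induced rad30Δ cells, 13.7, 13.4 and 14.2 in arrested rad30Δ cells, 62.6, 77.3 and 64.2 in induced WT cells and 29.4, 42.5 and 34.6 in arrested WT cells. The strain effect was -1.17, the induction effect 1.13 and the combined effect -0.04 ± 0.13, with an interval of -0.32 to 0.24. SHH4, a paralogue of the succinate dehydrogenase subunit Sdh4, had an induction effect of 1.08 against a strain fall and was left at 0.08 ± 0.15. PUT1, proline oxidase, was left at 0.38 ± 0.18 after -0.85 by strain and 1.23 by induction. Without replicate 3 of induced rad30Δ cells PUT1 was left at 0.09. In all 3 genes the induced rad30Δ and arrested WT values overlapped.

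Proteasome genes fell by strain and the induction hardly lifted them. Of 33 subunits, 30 were lower and 0 higher in induced rad30Δ cells (median -0.499). By strain 32 fell (median -0.599), and by induction 8 rose and 0 fell (median 0.111). PRE10, a core particle subunit, had 371, 360 and 359 CPM in induced rad30Δ cells, 344, 335 and 337 in arrested rad30Δ cells, 547, 552 and 548 in induced WT cells and 554, 548 and 560 in arrested WT cells. RPT5, an ATPase of the cap, was at 355, 357 and 335 CPM in induced rad30Δ cells, against 526, 531 and 548 CPM in arrested WT cells (log2 -0.62 ± 0.06). PRE6, another core subunit, fell by 0.58. RPN1 departed from the list with 568, 588 and 1654 CPM in induced rad30Δ cells, against 952, 728 and 664 CPM in arrested WT cells. Its combined value of 0.26 turned to -0.44 without replicate 3 of induced rad30Δ cells. Without that library all 33 subunits were lower and 15 had a strain fall against an induction rise, where 7 had it with all libraries.

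The proteasome-associated control element GGTGGCAAA, the site of Rpn4, lay before 27 of the 33 genes (81.8%), against 1.67% of all 5865. It also lay before 10.1% of all genes with a strain fall against an induction rise, 6.93% of those that fell by strain only and 0% of those with a strain rise against an induction fall. The element is shown in capitals for the 3 subunits above, in reverse in PRE6.
RPT5 (chrXV:544853-544885, plus strand): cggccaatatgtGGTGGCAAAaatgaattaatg
PRE6 (chrXV:255216-255248, plus strand): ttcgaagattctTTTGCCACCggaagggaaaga
PRE10 (chrXV:1018854-1018886, minus strand): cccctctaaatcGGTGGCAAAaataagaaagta

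Mitochondrial ribosome genes rose by strain. Of 70, 65 rose and 0 fell by strain (median 0.504), and 0 rose and 7 fell by induction (median -0.101). In the combined comparison 32 were higher and 0 lower (median 0.367). The count with a strain rise against an induction fall was 7 with all libraries and 51 without replicate 3 of induced rad30Δ cells, and 51 then fell by induction. Without that library 22 were higher and 1 lower in the combined comparison, with a median of 0.175. Cytosolic ribosome biogenesis factors differed from them: of 71, 30 fell by induction, 3 rose by strain, and 8 were lower in the combined comparison (median -0.161). Over all genes tested these shares were 9.41%, 12.2% and 9.71%, so the 8 lower factors lie near the share of all genes. GATGAG, the PAC motif, lay before 94.4% of these factors, 41.1% of genes that fell by induction only and 27.9% of all 5865.

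In part of the phosphate starvation genes the effects cancelled from the other side. Of 15, 8 rose and 0 fell by strain (median 0.194), and 0 rose and 9 fell by induction (median -0.336). In 6 of the 15 a strain rise met an induction fall. Another 2 rose by strain only, and 3 fell by induction only, PHO11 and PHO12 among them. The combined median was -0.029, with 1 gene higher and 3 lower. PHO5, the secreted acid phosphatase, had 110, 89.0 and 104 CPM in induced rad30Δ cells, 180, 170 and 186 in arrested rad30Δ cells, 49.7, 54.1 and 45.7 in induced WT cells and 68.6, 71.8 and 75.4 in arrested WT cells. Its strain effect of 1.17 exceeded its induction effect of -0.68, and the remaining 0.49 ± 0.09 was called. GIT1, the glycerophosphoinositol transporter, had 298, 206 and 215 CPM in induced rad30Δ cells, against 228, 263 and 243 CPM in arrested WT cells, a combined effect of -0.03 ± 0.18 from 0.79 and -0.82. VTC3, which takes part in polyphosphate synthesis, was left at -0.24 ± 0.10 after 0.29 by strain and -0.53 by induction, and was not called. CACGTG, the core of the Pho4 site, lay before 12 of the 15 genes (80.0%), against 6.27% of all 5865 genes. CACGTG also lay before 11.2% of genes with a strain rise against an induction fall and 10.3% of those that rose by induction only. It is shown for PHO5 and VTC3.
PHO5 (chrII:431187-431216, minus strand): ccttggcactcaCACGTGggactagcacag
VTC3 (chrXVI:517312-517375, minus strand): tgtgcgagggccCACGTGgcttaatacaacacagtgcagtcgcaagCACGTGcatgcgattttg

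Of 43 amino acid synthesis genes, 23 were higher and 0 lower (median 0.283), with 25 rises and 1 fall by strain and 10 rises and 4 falls by induction. HOM2, of the aspartate pathway, had 242, 225 and 207 CPM in induced rad30Δ cells, against 130, 134 and 136 CPM in arrested WT cells (log2 0.76 ± 0.08, of which 0.71 by strain). ARG1, of arginine synthesis, had 48.1, 45.9 and 62.7 CPM in induced rad30Δ cells, against 23.8, 27.8 and 22.8 CPM in arrested WT cells. LEU4, of leucine synthesis, had 655, 584 and 527 CPM in induced rad30Δ cells, against 272, 317 and 298 CPM in arrested WT cells. TGACTC, the Gcn4 core, lay before 76.7% of the 43 genes and 12.8% of all 5865. It is shown for ARG1, with a forward and a reverse match, and for LEU4.
ARG1 (chrXV:218854-218954, plus strand): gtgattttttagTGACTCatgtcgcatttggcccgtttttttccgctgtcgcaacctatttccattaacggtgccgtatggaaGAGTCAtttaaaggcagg
LEU4 (chrXIV:426838-426867, minus strand): cttacgtgtaagTGACTCagttctttcaaa

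Genes that mark mating type had strain effects of several log2 units, and in the α-specific genes the induction took part of them back. All 5 α-specific genes were higher (median 3.145) and all 7 a-specific genes were lower (median -3.509) in induced rad30Δ cells. STE3, the a-factor receptor gene, had 82.1, 102 and 105 CPM in induced rad30Δ cells, 663, 634 and 551 in arrested rad30Δ cells, 6.04, 7.41 and 4.72 in induced WT cells and 9.65, 10.5 and 12.5 in arrested WT cells. Its rise of 3.15 ± 0.14 was smaller than the strain effect of 4.91, since the induction effect was -1.76. STE2 was at 15.1, 18.3 and 19.9 CPM in induced rad30Δ cells, against 556, 554 and 596 CPM in arrested WT cells, and its induction effect of -0.21 was not called. HMRA1, which shares its sequence with MATa1, had 0.569, 0.461 and 0.584 CPM in induced rad30Δ cells, against 83.9, 82.7 and 84.3 CPM in arrested WT cells. These levels differ as between α and a cells, and no library separates mating type from RAD30. HO also cuts at MAT, and the part of the cut in the fall of α-specific genes was not tested.

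The combined effect departed from the sum of the single effects against arrested WT cells in 4 of 6490 genes (0.0616%), all below the sum: STE3, MF(ALPHA)2, SAG1 and LIF1. LIF1, a partner of DNA ligase IV in end joining, lies beside MF(ALPHA)2, and had 39.8, 33.0 and 37.6 CPM in induced rad30Δ cells, 118, 121 and 123 in arrested rad30Δ cells, 25.9, 27.8 and 22.9 in induced WT cells and 28.5, 28.4 and 28.9 in arrested WT cells. Above the sum edgeR called 0 genes, with 458 at an unadjusted p under 0.05, and DESeq2 called 36 above and 30 below. Without replicate 3 of induced rad30Δ cells edgeR called 76 above and 65 below, among them 8 of the 21 heat shock chaperones below. SSA4 was then at -1.08 and BTN2 at -1.16.

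**Figure D4:**
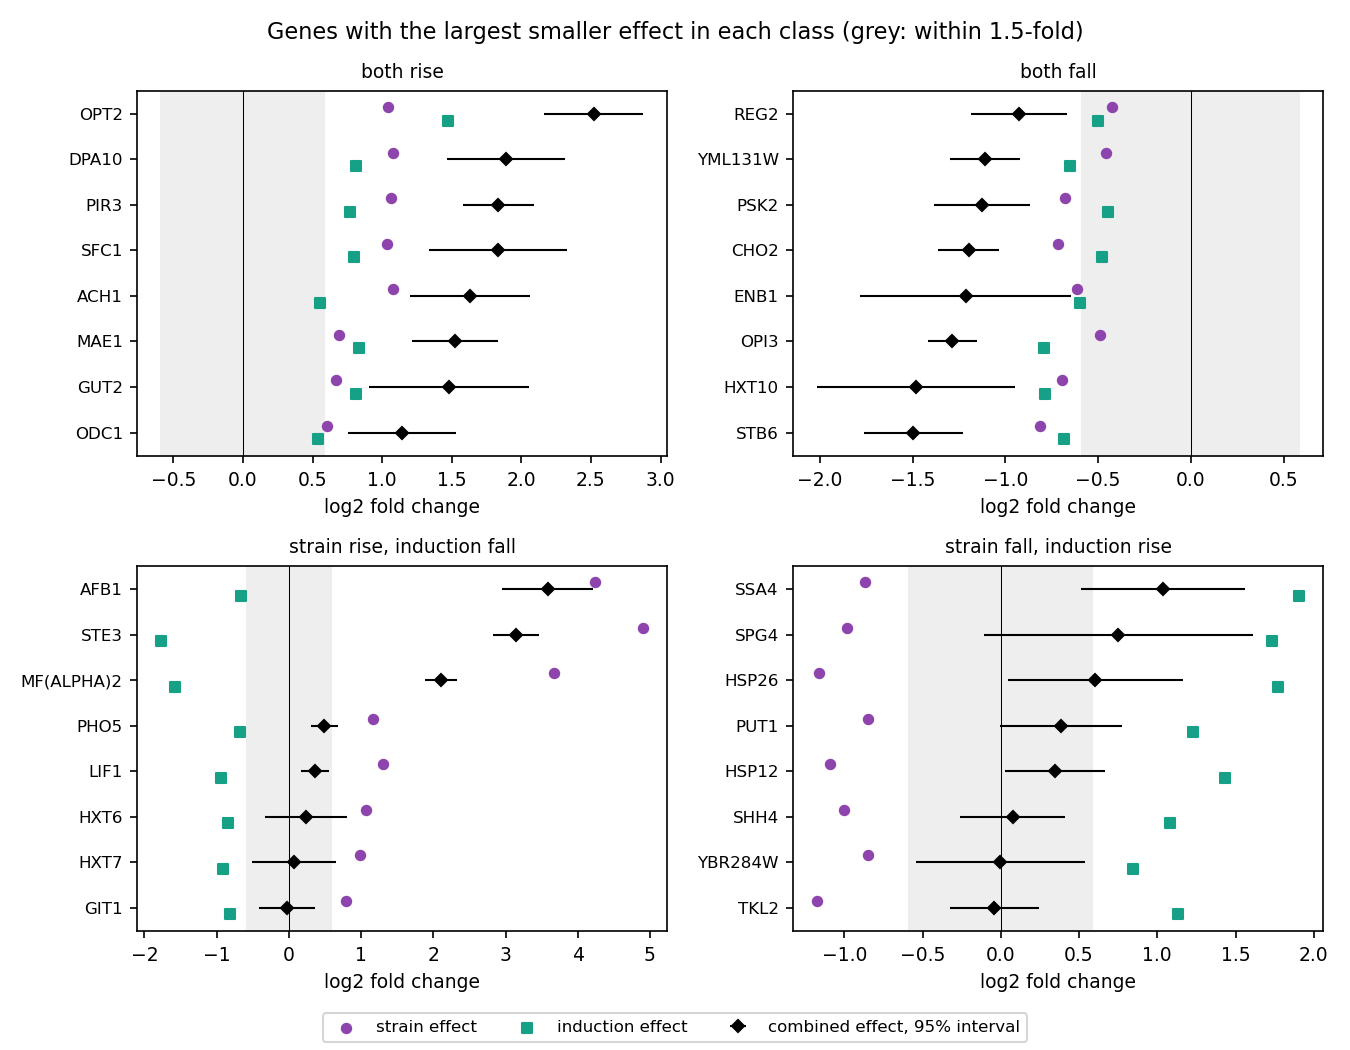
The 8 genes of each class with the largest smaller effect, with strain (circles), induction (squares) and combined effects (diamonds with 95% intervals) on the x axis as log2 fold changes; the grey band is within 1.5-fold of no change. In the upper panels the combined effect lies beyond both parts, and in the lower panels it lies between them, and its interval reaches into the band in most of these genes.

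In DNA damage and cohesin genes the calls by strain were mostly falls, and the calls by induction were rises. Of 20 DNA damage-induced genes, 5 were higher and 5 lower in the combined comparison (median 0.046). By strain 2 rose and 6 fell, and by induction 7 rose and 0 fell. MAG1, a DNA glycosylase gene, fell by 0.99 and RAD23, of nucleotide excision repair, by 0.58, both mostly by strain, while PLM2 rose by 0.47, mostly by induction. Of 10 cohesin genes and regulators, 6 fell and 0 rose by strain (median -0.169), and 2, PDS5 and ECO1, rose and 0 fell by induction (median 0.075). In arrested cells alone 0 of the 10 were called by strain (median -0.157). Over all genes tested 12.9% fell by strain, 9.54% rose by induction and 9.71% were lower in the combined comparison. In the combined comparison 1 of the 10 was lower, near the share of all genes, and 0 were higher (median -0.098). That call, ESP1 or separase, was lost without replicate 3 of induced rad30Δ cells. ECO1, the cohesin acetyltransferase gene, had 46.1, 46.7 and 71.1 CPM in induced rad30Δ cells, against 52.4, 42.9 and 39.6 CPM in arrested WT cells. It was not called in the combined comparison and rose by induction (0.38). Without replicate 3 of induced rad30Δ cells the induction effect of ECO1 was 0.27, its strain effect -0.23 and its combined effect 0.04. By RT-qPCR the study saw no increase of ECO1 after DSBs in either strain. Its HO samples were scaled to the glycolytic gene FBA1 and the values here by TMM, so the 2 measures are unlike.

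The study followed 21 of these genes by PCR or ChIP or, for HIR1, HTZ1 and SET2, through deletion mutants. Some were chosen from these RNA-seq results and others from the binding of Polη or from their promoters or position. Of the 21, 11 were lower, 1 was higher and 9 were not called in the combined comparison. ECM29, which encodes a proteasome-associated protein, had 141, 146 and 133 CPM in induced rad30Δ cells, against 242, 256 and 270 CPM in arrested WT cells. SOR1, sorbitol dehydrogenase, fell by 0.96 and AAC1, an ADP/ATP carrier, by 0.87. In 7 of the 21, ECM29, RIM4, MSC1, PUT1, UBI4, ASI3 and CYC7, a strain fall met an induction rise. UBI4, a polyubiquitin gene, had 558, 516 and 544 CPM in induced rad30Δ cells, 480, 485 and 463 in arrested rad30Δ cells, 692, 713 and 706 in induced WT cells and 557, 580 and 569 in arrested WT cells, and its combined interval was -0.21 to 0.05. ASI3 had a strain effect of -0.25, an induction effect of 0.34 and a combined effect of 0.08 ± 0.07. The induction effect of ECM29 (0.16) was not called without any one of 8 libraries, at 0.14 to 0.18.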

How the data were processed

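RNA-seq was measured in 12 samples, 3 in each of 4 groups taken from the labels. The authors enriched mRNA, trimmed with cutadapt, used HISAT2 for alignment to sacCer3 and Picard for duplicates, and obtained gene counts from featureCounts. The values used are these deposited raw counts. Versions of these tools and strandedness were not stated, so overlapping genes cannot be told apart. The deposited tables of the authors' own comparisons hold fold changes, p-values and mean expression and were not used.

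After TMM scaling, the 12 libraries were fitted as 4 groups in edgeR 4.0.16 (R 4.3.3, limma 3.58.1), with tests by quasi-likelihood F and Benjamini-Hochberg adjustment, threshold 0.05. Genes with fewer than 10 reads in total were left out. Intervals are 95% from the fit. Total reads set the precision. Alternatives were DESeq2 1.42.0, RLE, filterByExpr, no filter, replicate blocks, the 6 libraries alone, other ways of splitting the effect and leaving out each library. The scripts were tested on simulated counts. Motifs were searched in the R64 RefSeq genome, the same build, in Python 3.11.15. Windows can hold parts of neighbouring genes.

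The gene lists, members and classes were chosen with earlier results of these data known. Named genes were the 12 largest rises and falls without overlap and at least 10 CPM, the 8 genes of each class with the largest smaller effect, for each list the 3 lowest p-values (every member of lists of up to 10 genes), genes called in the interaction and genes the study names. Genes named outside this rule to show a list's range, and the choice of genes shown with sequences, were made after values were seen.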

Additional observations from a re-analysis of the deposited data

Results flagged for a closer look

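In 4 genes the induction effect differed between the strains by a test of the interaction (edgeR, adjusted over 6490 genes). The log2 difference, rad30Δ minus WT, was -2.24 ± 0.14 (SE) for MF(ALPHA)2, with 172, 151 and 178 CPM in induced and 1126, 974 and 1119 CPM in arrested rad30Δ cells. It was -1.84 ± 0.23 for STE3, -1.59 ± 0.15 for SAG1 and -1.55 ± 0.12 for LIF1. The first 3 of these are α-specific genes, which the WT cells of this series express at low level, and LIF1 lies next to MF(ALPHA)2 in the genome. In the WT cells STE3 had 6.04, 7.41 and 4.72 CPM after induction, against 9.65, 10.5 and 12.5 CPM in arrest.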

How the results depend on the processing

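Leaving out each library in turn gave 381 to 824 genes higher and 419 to 693 lower in induced rad30Δ than in arrested WT cells, 638 to 998 higher and 681 to 1066 lower by strain, and 415 to 747 higher and 382 to 801 lower by induction. It gave 53 to 120 genes that rose and 41 to 94 that fell by both effects, 80 to 284 with a strain rise against an induction fall, 119 to 255 with the reverse, 0 to 76 above and 4 to 65 below the sum of single effects. The 6 compared libraries alone called 294 higher and 308 lower. DESeq2 called 36 genes above and 30 below the sum. Single effects against arrested WT cells gave 38, 32, 41 and 63 genes in the 4 classes (both rise, both fall, strain rise against induction fall, strain fall against induction rise), the path through arrested rad30Δ cells 18, 21, 28 and 44, and the path through induced WT cells 32, 30, 183 and 181. These single effects rest on 6 libraries each in place of 12.

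Libraries of equal number did not deviate together between the compared groups (correlations of -0.301, 0.010 and -0.236). The main fit does not use the numbers as pairs. With the replicate block 631 genes were higher and 631 lower in the combined comparison and 1 was above the sum. Within strain, same-numbered rad30Δ libraries correlated at 0.194, 0.148 and 0.343 (unlike numbers at most 0.103). Same-numbered WT libraries correlated at 0.038, 0.103 and 0.004 (unlike numbers at most 0.055). Over genes of at least 10 CPM the values were 0.335, 0.266 and 0.422 in rad30Δ cells (unlike at most 0.089). They were 0.162, 0.233 and 0.108 in WT cells (unlike at most 0.004). Over those genes equal numbers thus went together within each strain, which the main fit leaves out. The replicate block within strain called 722 higher and 737 lower genes by induction, against 619 and 611 in the main fit. It called 11 genes above and 8 below the sum, against 0 and 4. RPN1 was the one named gene to change sign with a call, to -0.44 without replicate 3 of induced rad30Δ cells, and was 0.519 without replicate 1 of that group. Causes were not tested.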

Other observations

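Over all genes tested 9.51% were higher and 9.71% lower, and the shares in several of these lists lie near that. Of 20 iron and copper uptake genes, 3 were higher and 1 lower in induced rad30Δ cells. FTR1, the high-affinity iron permease, had 1185, 1606 and 2818 CPM in induced rad30Δ cells, against 1116, 1001 and 940 CPM in arrested WT cells. Of 22 cell wall genes, 5 were higher and 3 lower, with a strain effect of 1.41 for PST1 and of -1.24 for TIR1. Of 24 sulfate and methionine genes, 1 was higher and 7 lower. Ergosterol synthesis had 6 of 23 genes higher and 0 lower, purine synthesis 3 of 14 higher and 2 lower, and nitrogen use 1 of 20 higher and 5 lower. Of 26 histone chaperones and remodelers 1 was higher and 4 lower, of 16 haploid-specific and pheromone pathway genes 5 and 0, and of 10 meiotic genes 2 and 1. Median combined effects over 5 classes of gene length, from the shortest to the longest, were 0.02, 0.003, -0.01, 0.002 and -0.037 on the log2 scale.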
